A study of Mus musculus with 8 samples.

Results

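The myeloid C-type lectin cluster of the mouse comprises 8 genes of lectin-like receptors on chromosome 6 here, Clec2d, Clec12a, Clec12b, Clec1b, Clec9a, Clec1a, Clec7a and Olr1. Open chromatin was followed there in leukaemia cells with an inducible Klf4 by ATAC-seq, which cuts and tags accessible DNA with the Tn5 transposase. Peaks were taken when their summit lay in the body of 1 of these genes or within 20 kb of it (mm10). Peaks that overlapped between libraries were merged, and 13 of the 32730 merged regions of the genome were members, with 43 peaks. The genes were selected on peak calls of these same libraries, namely those of the site inside Clec1a, which had a peak at 0h and 6h and not later. Its calls, and the closeness of the other peaks to these genes, are therefore descriptions and carry no test.

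All groups were TetO-Klf4-AML cells, MLL-AF9 acute myeloid leukaemia cells with doxycycline-inducible Klf4, sorted as GFP+ from the bone marrow of leukaemic mice whose strain is labelled C57BL/7. They were taken at 0h, 6h, 12h and 24h, with 2 libraries per time and 50000 cells per library. Whether doxycycline was given at 0h, and whether both libraries of a time stem from different mice, is not stated in the labels. Each library was prepared from a cell population, so fewer cells with an open site and less opening per cell cannot be told apart.

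C-type lectin-like receptors are membrane proteins with an extracellular lectin-like fold, and many bind sugars, lipoproteins or proteins on other cells. Some carry a cytoplasmic activating motif that recruits the kinase SYK, and others an inhibitory motif that recruits phosphatases. The genes on this stretch belong to the natural killer gene complex, and several of them mark myeloid cells. In human acute myeloid leukaemia, CLEC12A is known as a surface antigen of blasts and of leukaemic stem cells.

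Of the 8 genes, 7 had a promoter window in the RefSeq table (GRCm38.p6), namely all except Clec1a. Peaks overlapped the windows of Clec12a, Clec2d and Olr1, and none overlapped those of Clec12b, Clec1b, Clec9a and Clec7a. The window of Clec12b lay at a start inside its RefSeq body, chr6:129385503. The higher end of that body, chr6:129427634, had no window, although distances to Clec12b are measured from the body. The 250 bases before the start of Clec12a, Clec2d and Olr1 are shown because the peaks of these regions lie over them, and those of Clec9a as an example without a peak. Capitals mark letters searched on both strands: CACCC, or instead GGGCGG, for KLF factors; GAGGAAG for ETS factors such as PU.1; TTGCNNNAA, or with the shorter spacing TTGCNNAA, for C/EBP; TGANTCA for AP-1; TGTGGT for RUNX; and AGATAA for GATA factors. The shorter C/EBP letters were added after the sequences had been seen.
Clec12a, plus strand, chr6:129349994-129350243: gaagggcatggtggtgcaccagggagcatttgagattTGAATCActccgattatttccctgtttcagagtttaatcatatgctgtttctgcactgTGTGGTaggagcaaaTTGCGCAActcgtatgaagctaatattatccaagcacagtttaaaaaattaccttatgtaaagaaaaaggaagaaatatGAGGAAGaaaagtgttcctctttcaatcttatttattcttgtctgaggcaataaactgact
Clec2d, plus strand, chr6:129180365-129180614: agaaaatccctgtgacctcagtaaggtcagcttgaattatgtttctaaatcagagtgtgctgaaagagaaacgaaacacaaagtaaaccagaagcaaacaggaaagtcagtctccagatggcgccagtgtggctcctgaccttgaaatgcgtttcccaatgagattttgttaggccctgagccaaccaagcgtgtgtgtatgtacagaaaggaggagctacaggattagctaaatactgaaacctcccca
Olr1, minus strand, chr6:129507166-129507415: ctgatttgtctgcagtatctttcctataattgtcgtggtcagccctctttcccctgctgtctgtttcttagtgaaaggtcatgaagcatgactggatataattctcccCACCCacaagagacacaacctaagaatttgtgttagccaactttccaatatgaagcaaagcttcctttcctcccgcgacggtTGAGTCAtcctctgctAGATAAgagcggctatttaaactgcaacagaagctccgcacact
Clec9a, plus strand, chr6:129408612-129408861: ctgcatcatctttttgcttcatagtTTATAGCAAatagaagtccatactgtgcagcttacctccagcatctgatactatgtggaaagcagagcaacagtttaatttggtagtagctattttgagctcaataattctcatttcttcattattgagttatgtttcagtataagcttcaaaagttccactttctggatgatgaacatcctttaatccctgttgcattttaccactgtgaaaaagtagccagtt

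Before Clec12a the search found the AP-1 letters, held by 6.75% of the 32817 promoters of the table over the same length, the RUNX letters (14.0%), the shorter C/EBP letters, whose single match reads alike on both strands (9.57%), and the ETS letters (10.6%). Before Olr1 it found CACCC (52.0%), the AP-1 letters (6.75%) and the GATA letters (9.99%). Before Clec9a it found the longer C/EBP letters on the minus strand (8.29%). No searched letters lay before Clec2d, and GGGCGG, found in 32.7% of all promoters, lay before none of these 4 genes. The windows of Clec12b, Clec1b and Clec7a held no match either. G and C made up 37.2% of the bases before Clec12a, 44.8% before Clec2d, 45.2% before Olr1 and 35.6% before Clec9a. The median over the promoters was 52.4%, and the shares given here were not matched for base composition. A match is a string of letters and not a site of binding.

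For replicates 1 and 2, the 0h libraries held 10 and 3 member regions, the 6h libraries 6 and 4, the 12h libraries 8 and 5, and the 24h libraries 4 and 3. The replicates of 0h thus lay farther apart than the times did. The lists held 14826 to 21903 peaks in all, and their member peaks made up 1.92 to 4.59 per 10000 peaks, the lowest and the highest both at 0h. Of the 13 regions 1 was called in all 8 libraries, against 28.0% of all regions, and 10 were called in at most 4 libraries, against 53.7% of all regions. A peak in 1 library alone was seen in 2 of the 13, against 27.9% of all regions. Both 0h libraries had a peak in 3 of the 13, against 39.9% of all regions, both 6h libraries in 3 (41.5%), both 12h libraries in 3 (49.6%) and both 24h libraries in 2 (36.1%). The region inside Tmem52b was among the 3 at 6h, although its 2 peaks there lay 404 bp apart and were joined through other libraries. At no time did both libraries have a peak in 7 of the 13, against 41.9% of all regions. The region inside Tmem52b was not counted among these 7. The libraries of one time differed in 7 of the 13 regions for 0h, against 33.2% of all regions, and in 4 for 6h (23.6%), 7 for 12h (26.6%) and 3 for 24h (18.1%). In 7 of the 13, 0h replicate 1 had a peak and 0h replicate 2 had none, against 26.3% of all regions, and the reverse held for 0 of the 13, against 6.87%.

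**Figure D1:**
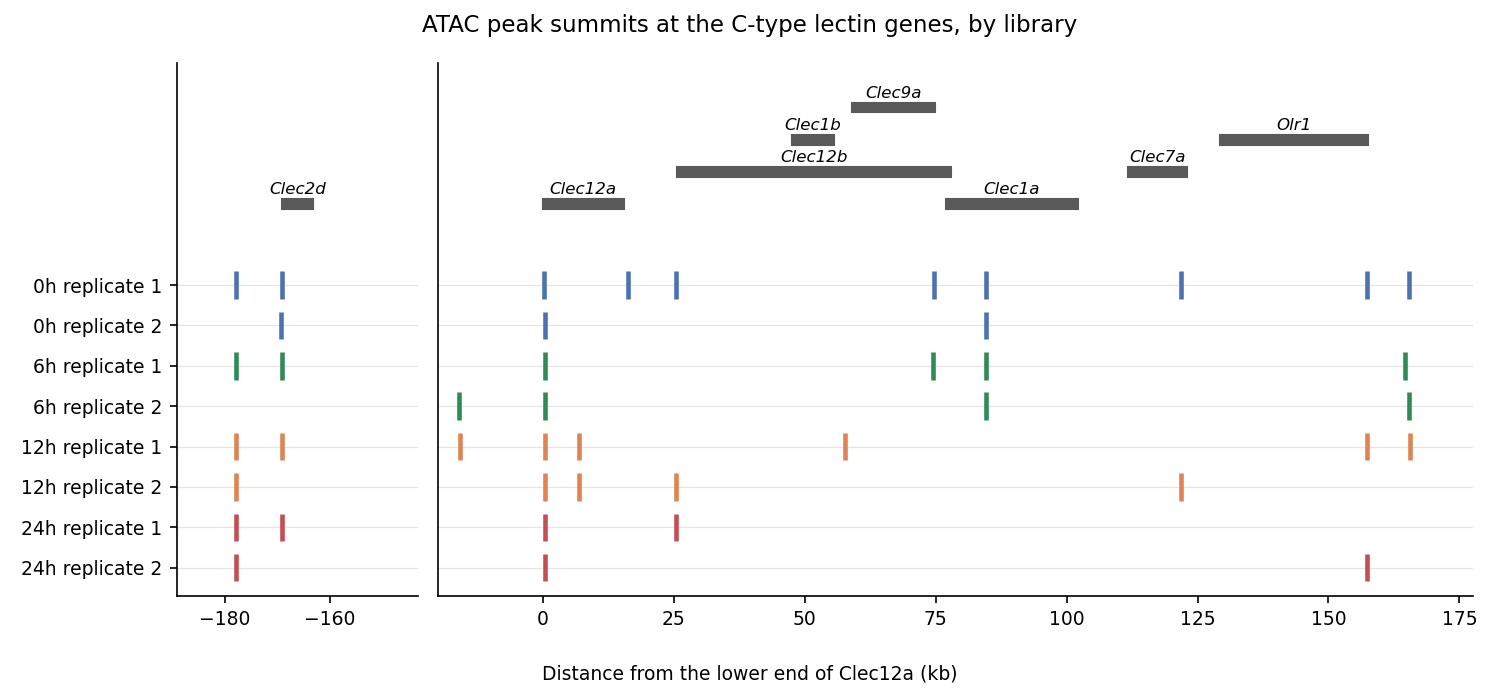
Peak summits (ticks) of the 8 libraries, by distance in kb from the lower end of Clec12a, under the bodies of the 8 genes (bars); the left panel holds Clec2d and the right panel the other genes, on the same scale. The column at the start of Clec12a has a tick in all 8 libraries, and the column inside Clec1a has ticks in the 4 libraries of 0h and 6h.

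The peaks themselves were low. Fold enrichment, the pile-up of tags at the summit over the local background with 1 added to each, ran from 4.05 to 11.3 in the member peaks with a median of 6.68, against a median of 8.10 over all peaks. The pile-up was 6 to 22 tags with a median of 9, against a median of 14 over all peaks. By percentile of fold within its own list, the median member peak stood at 30.8, and 7 of the 43 stood above 50. The folds are the authors' own values for each peak. Those of different lists are not on a common scale, and they describe each peak within its list.

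**Figure D2:**
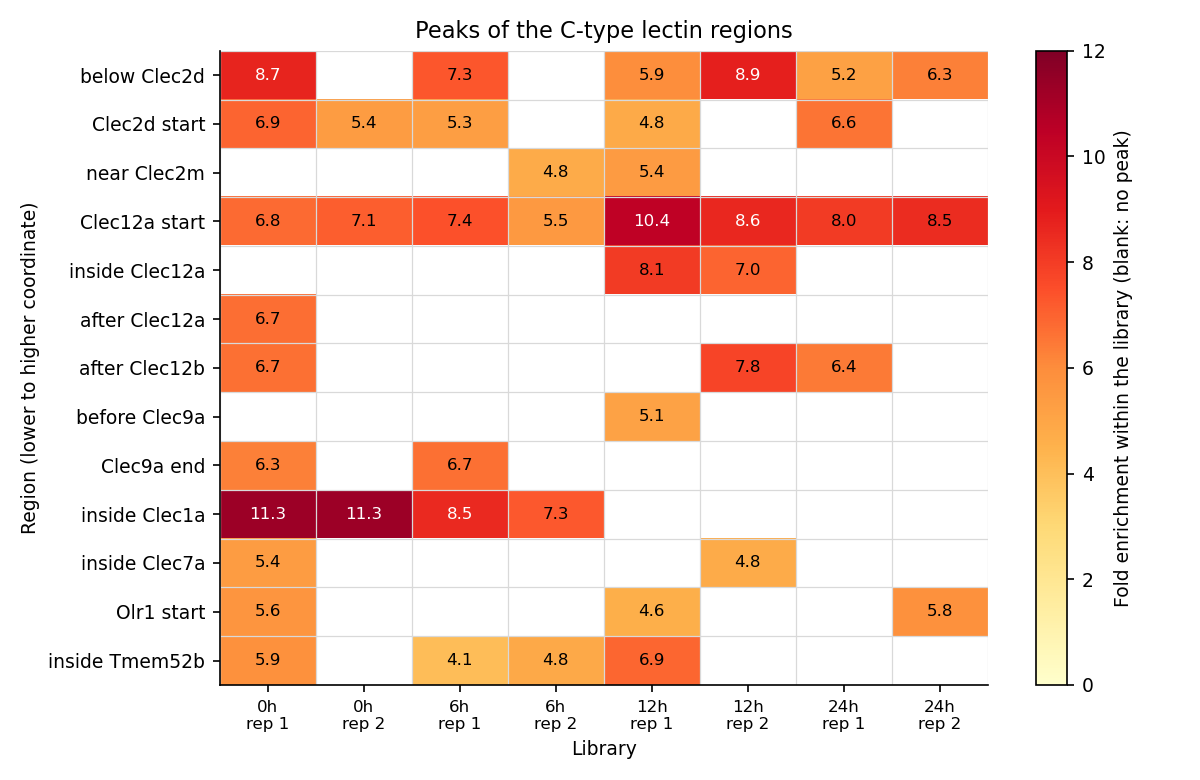
Fold enrichment of the peak in each of the 13 regions (rows, from the lower to the higher coordinate) and the 8 libraries (columns, by time); a blank cell has no peak. The row at the start of Clec12a is filled in all 8 columns, the row inside Clec1a in the first 4, and the row inside Clec12a in both 12h columns.

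Clec1a encodes a receptor that in mouse recognises the melanin of fungal spores and is known from endothelium and some myeloid cells. The site inside it lay at chr6:129434304-129434665, 7.78 kb from the lower and 17.5 kb from the higher end of the gene. The nearest gene end was the higher end of the RefSeq body of Clec12b, 6.83 kb away. The 0h libraries both gave it a fold enrichment of 11.3, the 6h libraries gave 8.54 and 7.26, and neither the 12h nor the 24h libraries had a peak there. The summits of the 4 peaks lay within 38 bp of each other.

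Within the lists, the Clec1a site stood at the percentiles 82.4 and 84.3 of fold at 0h and 54.7 and 40.5 at 6h. Its pile-up in 0h replicates 1 and 2 was 20 tags (95% Poisson interval 12.2 to 30.9) and 14 tags (7.65 to 23.5). In 6h replicates 1 and 2 it was 12 tags (6.20 to 21.0) and 9 tags (4.12 to 17.1). These intervals overlap, and they cover counting error only. Its 0h peaks had the highest percentiles of the 43 member peaks, and its 6h peaks lay nearer to the other members.

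Peaks with few tags were called at every time. At the lowest local background of a list, 5 tags were enough for a call in every library except 0h replicate 2, where 4 were enough. The 12h lists held 21903 and 19728 peaks, more than the 15641 of 0h replicate 2, in which the Clec1a site was called. The lowest local background was 0.416 and 0.359 tags in the 12h lists and 0.188 in 0h replicate 2. List length alone therefore does not rank the libraries by how readily a site is called. The 24h lists were the shortest, with 15109 and 14826 peaks. The tags at the site in the libraries without a peak were not used here, so the site was not called at 12h and 24h, which does not give its level there.

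Of all 32730 regions, 40 (0.122%) had the calls of the Clec1a site, a peak in each of the 4 earlier libraries and in none of the 4 later ones. By mean percentile of fold over those 4 libraries the Clec1a site came first of the 40, at 65.5. The next were inside Dnah6 on chromosome 6 at 64.5, 0.06 kb from an end of Napb on chromosome 2 at 61.6, 30.1 kb from an end of Wnt11 on chromosome 7 at 57.1, and inside Ncam2 on chromosome 16 at 49.9. The likeness is the same call in each of 8 libraries, and folds among these 4 others ranged from 5.96 to 12.0. Folds of these regions are given as a description.

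Clec12a encodes an inhibitory receptor of myeloid cells that binds uric acid crystals in mouse. The region at its start, chr6:129349730-129350356, was the 1 member region called in all 8 libraries. The 0h libraries had folds of 6.84 and 7.12, the 6h libraries 7.43 and 5.50, the 12h libraries 10.4 and 8.61, and the 24h libraries 8.05 and 8.46. In tags the pile-up was 13 and 11 in the 0h libraries, 13 and 10 in the 6h libraries, 22 and 18 in the 12h libraries, and 14 and 16 in the 24h libraries. The 12h libraries held the highest counts, and the 95% Poisson intervals of all 8 overlapped. The local background there was also highest at 12h, 1.21 tags in both libraries, against 0.685 to 1.05 in the others. These tags were not scaled for depth. All 8 summits lay in the promoter window, 250 bases before to 50 after the transcript start, at positions from -150 to 21 bp relative to that start. A peak in all 8 libraries overlapped 31.0% of the promoter windows of protein-coding genes, and no peak overlapped 52.9%.

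Inside Clec12a, 6.87 kb from the nearer end of the gene, the region chr6:129356363-129356825 was called at 12h alone. Its fold was 8.05 and 6.97 in the 12h libraries, with 15 tags (8.40 to 24.7) and 12 tags (6.20 to 21.0), and no peak was called in the libraries of 0h, 6h and 24h. The summits of the pair lay 21 bp apart. Another region, 0.773 kb beyond the gene, had a peak in 0h replicate 1 alone, with a fold of 6.71.

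**Figure D3:**
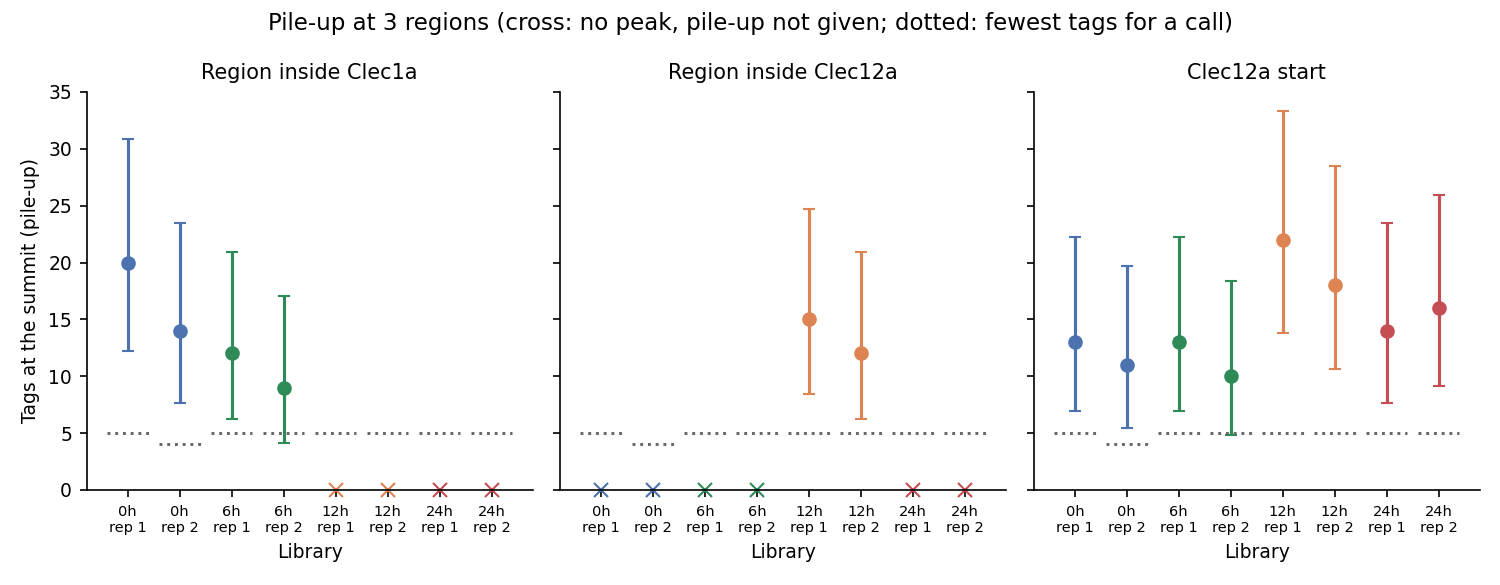
Tags at the summit (pile-up) in each library, with 95% Poisson intervals, inside Clec1a, inside Clec12a and at the start of Clec12a; a cross marks a library with no peak, whose pile-up is not given, and dotted lines mark the fewest tags for a call at the library's lowest background. Peaks inside Clec1a had 9 to 20 tags at 0h and 6h, those inside Clec12a 12 and 15 at 12h, and those at the start of Clec12a 10 to 22 in all 8 libraries.

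Against 0h, 1 of the 13 regions was gained at 12h, the region inside Clec12a, where gained means a peak in both libraries of the later time and in neither of 0h. Over the genome 4.03% of regions were gained at 12h as deposited, and 2.69% with lists of equal length, and a single region does not set the members apart from that share. The Clec1a site was the 1 member lost, the reverse call, at 12h and at 24h, where 1.45% and 4.43% of all regions were lost (2.31% and 3.01% with lists of equal length). Since its calls chose these genes, nothing is read from those counts. At 6h 0 of the 13 were gained and 0 lost, against 1.85% and 2.34% of all regions, and at 24h 0 were gained, against 1.12% of all regions. Such equal lists gave 2.37% as gained at 6h, 2.36% as lost at 6h and 2.92% as gained at 24h, so the uneven shares of gained and lost regions at 12h and 24h moved with the length of the lists. With 2 libraries per time the 4 libraries of a comparison can be split into pairs in 3 ways, so a two-sided exact permutation test could not go below 0.333.

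Lists of equal length, the 14826 strongest peaks of each library, kept the gained Clec12a region and the lost Clec1a site. They added the start of Clec2d as lost at 6h and at 12h, where they gave 2.36% and 2.31% of all regions as lost. These counts moved with single libraries. A time left with 1 library makes the call looser for every region. In 26.3% of all regions, 0h replicate 1 had a peak and 0h replicate 2 had none. The share of all regions called was not computed with a library left out, so nothing about the members is read from the counts that follow. Without 0h replicate 2 the lost regions were 4 at 6h, 3 at 12h and 5 at 24h, and without 0h replicate 1 they were 0, 1 and 1. Without 0h replicate 1 the gained regions were 2 at 12h and 1 at 24h, the region below Clec2d being the addition at both times. Without 12h replicate 2 the regions gained at 12h were 3. Without 6h replicate 1 there was 1 region gained and 1 lost at 6h, without 12h replicate 1 there were 2 lost at 12h, and without 24h replicate 1 there were 2 lost at 24h.

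Between the later times, the region inside Clec12a was gained at 12h against 6h and lost at 24h against 12h, where 4.46% and 6.82% of all regions had these calls. The Clec1a site was lost at 12h and at 24h against 6h, where 1.02% and 3.55% of all regions were lost. The region inside Tmem52b was also lost at 24h against 6h, although its 2 peaks at 6h did not overlap. None of the 13 was gained at 24h, against 6h or against 12h, where 0.972% and 0.364% of all regions were gained.

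Clec12b encodes an inhibitory receptor, and its RefSeq body of 52.1 kb spans Clec1b and Clec9a. The region 0.271 kb beyond its lower end, which is the end away from its start, had folds of 6.69 in 0h replicate 1, 7.76 in 12h replicate 2 and 6.44 in 24h replicate 1. Those 3 summits lay within 13 bp of each other, and 1 library had no peak there at each of these times. Clec1b, the receptor on platelets for podoplanin, had no region in its body. The peaks within 20 kb of it numbered 3, and they belong to the 2 regions at Clec9a described next.

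Clec9a encodes a receptor of dendritic cells that binds actin filaments of dead cells. The region near its end, chr6:129423836-129424476, had folds of 6.30 in 0h replicate 1 and 6.68 in 6h replicate 1 and no peak in the other 6 libraries. A further region 1.38 kb before its start had a peak in 12h replicate 1 alone, with a fold of 5.13 and 7 tags. Neither 24h library had a peak within 20 kb of Clec9a, Clec1b, Clec1a or Clec7a.

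Clec7a encodes the fungal beta-glucan receptor that signals through SYK. The 1 region within 20 kb of it, chr6:129471213-129471853, lay inside the gene, 1.15 to 1.21 kb after the start. The fold was 5.35 in 0h replicate 1 and 4.77 in 12h replicate 2, with 7 and 6 tags, and the other 6 libraries had no peak. These values stood at the percentiles 17.2 and 5.84 of their lists.

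Olr1 encodes a scavenger receptor for oxidised low-density lipoprotein. The region at its start, chr6:129506838-129507325, had folds of 5.64 in 0h replicate 1, 4.62 in 12h replicate 1 and 5.85 in 24h replicate 2. The summits lay from -67 to 8 bp relative to the transcript start, at the edge of the sequence shown above. A region counted with Olr1 lay inside its neighbour Tmem52b, with folds of 5.86 in 0h replicate 1, 4.05 and 4.85 in the 6h libraries and 6.92 in 12h replicate 1. The 2 peaks at 6h were 404 bp apart and were joined through peaks of other libraries.

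Clec2d encodes a ligand that holds back natural killer cells through the receptor encoded by Klrb1b in mouse. It lies apart from the other 7 genes, with 123 kb between the 2 blocks of windows. The region at its start, chr6:129180430-129180937, had folds of 6.94 and 5.36 at 0h, 5.28 in 6h replicate 1, 4.81 in 12h replicate 1 and 6.59 in 24h replicate 1, with 6 to 12 tags. Both libraries had it at 0h, and 1 of 2 at each later time. The summits lay from -73 to 104 bp relative to the transcript start.

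A second region 8.76 kb below Clec2d, chr6:129171593-129172026, was the member called in most libraries after the start of Clec12a, 6 of 8. Folds were 8.70 in 0h replicate 1, 7.29 in 6h replicate 1, 5.94 and 8.85 in the 12h libraries, and 5.18 and 6.30 in the 24h libraries. Neither 0h replicate 2 nor 6h replicate 2 had a peak there. The last member region, 2.16 kb from an end of Clec2m and 15.8 kb from Clec12a, had folds of 4.78 in 6h replicate 2 and 5.44 in 12h replicate 1.

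**Figure D4:**
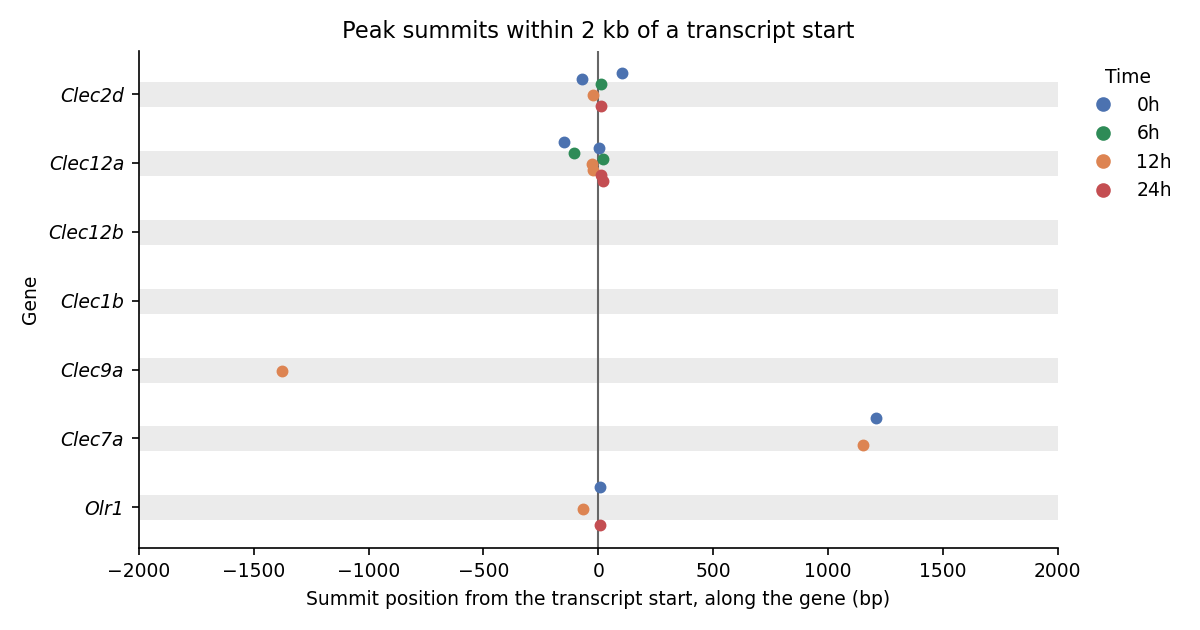
Peak summits within 2 kb of a transcript start, in bp along the direction of the gene, for the 7 genes with a promoter window; each point is a peak, coloured by time. Points gather at the starts of Clec2d, Clec12a and Olr1, lie 1.15 to 1.21 kb after the start of Clec7a and 1.38 kb before that of Clec9a, and are missing for Clec12b and Clec1b.

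The limit of 20 kb left little at its edge. The farthest members inside it were those 15.8 kb from Clec12a and 8.76 kb from Clec2d. The nearest regions outside lay 26.0 kb away, at an end of Gabarapl1, an autophagy gene, with a peak in 7 libraries and folds of 4.83 to 10.4, and 46.5 kb away with a peak in 4 libraries. Of the 13 regions 7 lay within 20 kb of 2 or more of the 8 genes, so the genes share peaks and are not independent of each other.

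By gene, the 0h libraries had a peak in the body or within 20 kb of 8 and 5 of the 8 genes, the 6h libraries of 7 and 5, the 12h libraries of 7 and 6, and the 24h libraries of 3 and 3. The 3 genes were Clec2d, Clec12a and Clec12b in 24h replicate 1, and Clec2d, Clec12a and Olr1 in replicate 2. Over all 21887 protein-coding genes the same share was 61.9% to 68.3% across the libraries, with 62.0% and 61.9% at 24h and 62.0% in 0h replicate 2. In 0h replicate 2 and 6h replicate 2, Clec12b, Clec9a and Clec1a were counted through the Clec1a site alone. Without that site both libraries had a peak at 2 of the 8 genes, the counts of the other 6 libraries were the same, and nothing is read from the order of the times. Clec12a was the 1 of the 8 with a peak in every library, against 55.0% of all genes.

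Of 30 other lectin-like genes of the natural killer complex, 15 had no peak within 20 kb in any library and 4 had one in all 8, namely Klrb1b, Klrb1c, Klrb1f and Clec2f. The 0h libraries had a peak at 12 and 7 of them, the 6h libraries at 10 and 9, the 12h libraries at 13 and 8, and the 24h libraries at 4 and 5. Klra2 and Klra10 had a lost region at 6h, Klra2 and Klri2 at 12h, and all 3 at 24h, and none of the 30 had a gained one at any of these times. Klra genes belong to a family of related genes, and whether reads there were shared between them was not tested. Of 21 myeloid C-type lectin genes elsewhere, 10 had no peak, and Clec5a, Clec4n and Clec4d had one in all 8 libraries. Clec4d, Clec4g and Clec4n had a lost region at 6h and at 24h, none of the 21 had one at 12h, and Clec4a2 had a gained region at 6h. Neighbours such as Clec4n and Clec4d lie within 20 kb of each other and share regions, so they are not independent. Over all protein-coding genes 3.84% had a lost region at 6h, 2.43% at 12h and 7.05% at 24h, and 3.48%, 7.37% and 2.24% had a gained one. Of the same genes 26.8% had no peak in any library and 55.0% had one in all 8.

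Of 23 genes for proteins that act below such receptors, 21 had a peak within 20 kb in all 8 libraries, against 55.0% of all protein-coding genes. The other 2, Fgr and Lcp2, had one in 7. Syk, the kinase recruited by activating receptors, had a gained region at 6h, 12h and 24h, and at 6h and 24h it was the 1 gene of the 23 that did. Inpp5d had a lost region at 6h and Lyn at 24h. At 12h 6 of the 23 genes had a gained region, Inpp5d, Prkcd, Syk, Tyrobp, Vav1 and Vav3, and 2 of these 6, Inpp5d and Vav1, also had a lost one. Over all protein-coding genes 3.48%, 7.37% and 2.24% had a gained region at 6h, 12h and 24h. A lost one was seen in 3.84%, 2.43% and 7.05%. The 23 genes had 125 regions in all, and a gene with more regions has more chances of a call. Their calls were not repeated with lists of equal length, and nothing is read from them.

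**Figure D5:**
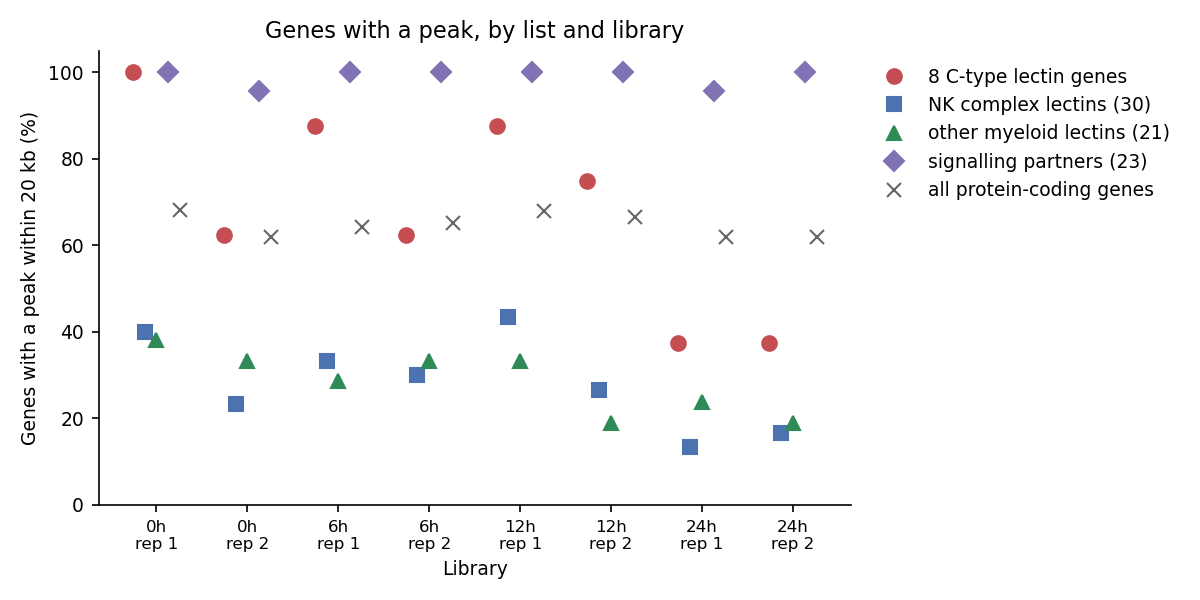
Share of genes (%) with a peak in the body or within 20 kb, by library, for the 8 C-type lectin genes, 3 other gene lists and all protein-coding genes. The 8 genes ranged from 37.5% in both 24h libraries to 100% in 0h replicate 1, and 0h replicate 2 and 6h replicate 2 reached 62.5% with 3 of their 5 genes counted through the Clec1a site, while all protein-coding genes ranged from 61.9% to 68.3%.

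Markers of cell types were read in the same way. Of 8 natural killer cell genes 1 to 3 had a peak within 20 kb per library, with Klrb1c in all 8 libraries and Ncr1, Gzma and Gzmb in none. Of 5 endothelial genes 1 to 2 had one, with Pecam1 in all 8 libraries and Kdr, Tek and Emcn in none. Of 7 megakaryocyte and platelet genes 4 to 6 had one, of 7 dendritic cell genes 5 to 6, of 6 erythroid genes 3 to 5, of 7 T cell genes 5 to 6 and of 6 B cell genes 2 to 5. In these 5 lists 3, 5, 3, 4 and 2 genes had a peak in all 8 libraries, and 1 gene of each had none in any. Over all protein-coding genes 61.9% to 68.3% had a peak per library, 55.0% had one in all 8 and 26.8% had none. Neighbours in a list can share peaks, as Cd3d and Cd3g do, with 4 regions and 18 peaks each. Of 10 monocyte and neutrophil genes 5 to 8 had a peak per library. These were Csf3r, Itgam, Elane and Cebpe in all 8 libraries, Ccr2 in 7, Mpo and Ly6c2 in 5, S100a9 in 2, and S100a8 and Csf1r in 1 each. Accessibility near a gene does not show its expression, and the part of other cells in the results was not tested.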

How the data were processed

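Peak lists of 8 ATAC-seq libraries were analysed. The authors used BWA, SAMtools and MACS2 with mm10, per the submitters' processing notes. Not given in the sources used here: versions, settings, read shifting and the treatment of duplicates. There is 1 deposited list for each library, so replicates were not pooled, and total read counts were not used. Each peak carries a fold enrichment, a linear ratio, as deposited by the authors, and a −log10 p-value and, as deposited by the authors, a −log10 q-value, the lowest −log10 q being 2.00. The integer score deposited by the authors was not used. The offset of the summit was taken from the deposited lists.

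Peaks of different libraries on the 19 autosomes and both sex chromosomes were merged where they overlapped by at least 1 bp. Pile-up and local background were solved from fold and −log10 p (tolerance 0.001), which gave a whole number for 100% of the peaks of every list. The lowest local background was 0.188 tags in 0h replicate 2 and 0.342 to 0.494 in the other libraries, and the median peak width was 282 bp there and 370 to 460 bp elsewhere. Gene bodies, promoters and their letters came from RefSeq (GRCm38.p6), and all genes of the lists matched a symbol.

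Groups and replicate numbers came from the sample titles. The members and gene lists were chosen with earlier results of these data known. All 8 genes and every member region are reported, with full values for regions called in all libraries, gained or lost regions, and the strongest region at each gene; 5 regions with the calls of the Clec1a site were named by mean percentile. Alternatives were −log10 q of at least 5, equal list lengths, an overlap of 50%, windows of 10 and 50 kb, each library left out and, added later, regions from summits within 200 bp. The scripts were tested on simulated data. Python 3.11.15, pandas 2.3.3 and scipy 1.17.1 were used.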

Additional observations from a re-analysis of the deposited data

How the results depend on the processing

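The alternatives gave 136 values for 10 results, of which 124 stayed within 1.5 times the count as reported, or within 1 SD of the mean over libraries. That share overstates stability, because many of the values could hardly move. Among them are the values for the Clec1a site. Others come from leaving out a library of a time that the comparison does not use. With −log10 q of at least 5, an overlap of 50% of the shorter of a peak and the median span of its region, windows of 10 or 50 kb, and regions from summits (chosen after seeing the data), the gained region inside Clec12a and the lost Clec1a site were again the calls against 0h. When every list was shortened to the same length, lost regions were 1 at 6h, against 0 as reported, and 2 at 12h, against 1. Such lists gave 2.36% and 2.31% of all regions as lost at these times. With each library left out in turn, gained regions ranged from 0 to 1 at 6h, 1 to 3 at 12h and 0 to 1 at 24h, and lost regions from 0 to 4 at 6h, 1 to 3 at 12h and 1 to 5 at 24h. The highest lost counts came without 0h replicate 2, the list with the lowest local background. A time that lost a library rests on the other one, which makes the call looser for every region. The share of all regions called was not computed with a library left out, so nothing about the members is read from these ranges. The alternatives remove or regroup peaks, so none could give the Clec1a site a peak at 12h or 24h, and its 0 libraries there show nothing of stability. The depth behind a member peak, 6 to 22 tags, limits what a missing peak can show. No paired analysis was possible because the results are presence calls that come from no test, and the labels do not tie libraries of the same number together.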
